A study of Mus musculus with 28 samples.

Results

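The 10 genes described here carry out or control antigen presentation by MHC class II. They are H2-Aa, H2-Ab1, H2-Eb1, Cd74, H2-DMa, H2-DMb1, H2-DMb2, H2-Oa, H2-Ob and Ciita, picked by symbol from 32544 genes in each of 2 count tables, 1 for males and 1 for females, and all 10 were present and passed the filter on low counts in both. The 28 libraries each came from the liver of 1 C57BL/6 mouse and fell into 8 groups of 4 males or 3 females. EC-Myc KO mice (KO), in which c-Myc is deleted from endothelial cells by a tamoxifen-inducible Cre, were compared with floxed control mice (CT), and a high-fat/cholesterol diet (HFC) with a low-fat control diet (CTD), which gave KO on HFC, CT on HFC, KO on CTD and CT on CTD in each sex. The study asks how loss of endothelial c-Myc bears on liver inflammation and fibrosis brought on by diet. Animals of all groups received tamoxifen at 5 weeks of age and started their diet 2 weeks later for 5 weeks, and the labels give an age of 13 weeks, 1 week more than these steps add up to. The sources used here do not give the promoter that drives Cre, or whether CT mice also carry Cre.

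MHC class II molecules are pairs of an alpha and a beta chain that show peptides from engulfed material to CD4 T cells. They are known from B cells, dendritic cells and macrophages, and at lower levels from the sinusoidal endothelium of the liver. The invariant chain, encoded by Cd74, fills the groove of a new class II molecule and guides it to the endosome, where the DM molecule swaps the last piece of that chain for a peptide and the DO molecule holds DM back. Ciita is the coactivator that switches these genes on together, and it acts through proteins bound to the X box and Y box in their promoters. Mice of the C57BL/6 strain make the A pair (H2-Aa with H2-Ab1) but no E pair, since their E alpha gene is defective.

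The promoter letters of the genes are shown because they are a feature that the choice of genes did not use. RefSeq sequences (GRCm38.p6) were searched in a window of 250 bases before to 50 after the annotated start for 7 of the 10 genes. H2-Ab1 and Ciita had no window, and Cd74 is not shown. Capitals mark the X box letters CTAGCAAC, allowing 2 letters to differ, and the Y box letters GATTGG downstream of them on the same strand with 10 to 30 bases between. Each line runs 5′ to 3′ along the strand of the gene.
H2-Aa: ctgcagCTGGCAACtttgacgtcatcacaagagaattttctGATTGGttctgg
H2-Eb1: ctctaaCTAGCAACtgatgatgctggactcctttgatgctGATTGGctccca
H2-DMb1: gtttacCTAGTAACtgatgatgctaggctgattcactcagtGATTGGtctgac
H2-DMb2: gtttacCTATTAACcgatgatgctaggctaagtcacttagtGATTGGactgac
H2-Oa: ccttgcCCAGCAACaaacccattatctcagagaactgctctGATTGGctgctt
H2-Ob: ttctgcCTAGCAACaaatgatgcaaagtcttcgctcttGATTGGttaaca

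The stretch of H2-Aa lies at chr17:34287861-34287913 on the minus strand. The others lie on the plus strand, at chr17:34305767-34305818 for H2-Eb1, chr17:34153088-34153140 for H2-DMb1, chr17:34145117-34145169 for H2-DMb2, chr17:34092294-34092346 for H2-Oa and chr17:34238809-34238858 for H2-Ob. The pair of boxes was found in 6 of the 7 genes, with 24 bases between the boxes in H2-Ob, 26 in H2-Eb1 and 27 in the other four. The letters of H2-Eb1 and H2-Ob matched the X box without a difference, those of H2-Aa, H2-DMb1 and H2-Oa differed at 1 letter and those of H2-DMb2 at 2. H2-DMa, the alpha chain of DM, held no such pair in its windows. Searched on both strands, the pair was present in 1.18% of 32851 promoter windows of all genes. The X box letters alone were present in 86.5% of windows and the Y box letters alone in 16.1%, and each was thus more common than the pair. The letters and the spacing were chosen with class II promoters in view, and a match is a description of the sequence, not of binding.

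**Figure D1:**
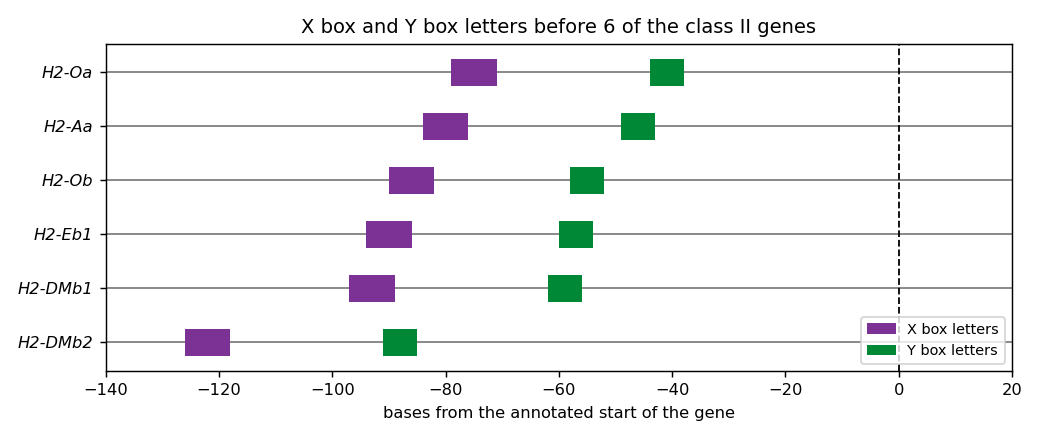
Position of the X box letters (purple) and Y box letters (green) in the 6 promoters that hold the pair, in bases from the annotated start of each gene on its own strand, with the start at 0 (dashed). The gap between the boxes is 24 to 27 bases in all 6 genes, while their distance from the start varies, with H2-DMb2 farthest out.

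Of the genes, 8 lie within the MHC on chromosome 17 (GRCm38, GENCODE M21), from H2-Oa at 34092340 to 34095234. Next along it lie H2-DMa at 34119541 to 34139101, H2-DMb2 at 34143307 to 34151555, H2-DMb1 at 34153072 to 34160230, and H2-Ob at 34238903 to 34254414. The last are H2-Ab1 at 34257689 to 34269419, H2-Aa at 34282744 to 34287823 and H2-Eb1 at 34305867 to 34316674. Ciita lies on chromosome 16 at 10480059 to 10528418 and Cd74 on chromosome 18 at 60803848 to 60812652. H2-DMb1 and H2-DMb2, 2 copies of the DM beta chain gene, have transcripts that are identical at 86% of 1314 aligned bases, and 26.6% of the 50-base stretches of H2-DMb1 also occur in H2-DMb2. Reads may have been split between them. Exons of H2-DMa overlap Brd2 on the opposite strand over 10.4% of their length, those of H2-Oa an antisense RNA over 22.8% and those of Ciita the gene Dexi over 3.45%. The sources used here do not say whether counting used strand, so reads of such pairs cannot be told apart.

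Libraries held 22154774 to 22652285 counts in males and 18741939 to 19195502 in females. Counts of any 2 animals of a group were further apart than sampling alone gives (lowest chi-square over degrees of freedom 11.9 in males, 19.5 in females). The numbers that name the animals do not overlap between CTD and HFC mice, so a difference between cohorts cannot be told apart from the diet. Myc in whole liver averaged 11.4 ± 6.16 CPM in KO males and 8.38 ± 4.16 CPM in CT males on HFC (SD, n = 4, edgeR adjusted p = 0.960). Other liver cells express it, so this does not check the endothelial deletion. Levels below are CPM, counts relative to the library total after TMM scaling, which allows for a shift in library make-up, as means ± SD over animals.

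Per kilobase of exon, the invariant chain was the most abundant of the 10 transcripts in all 8 groups. In KO males on HFC it stood at 318 ± 75.6 CPM per kb, against 64.7 ± 11.2 for H2-Ab1, 62.8 ± 11.9 for H2-Eb1 and 51.2 ± 10.9 for H2-Aa (SD, n = 4). The ranges of mean ± SD of the 3 chains overlapped, which does not use that they were measured in the same livers. H2-Aa had the lowest mean of the 3 in all 8 groups. A difference within livers was not tested. H2-DMb1 followed with 12.8 ± 3.15 CPM per kb and H2-DMa with 4.77 ± 1.14. At the low end were H2-DMb2 with 1.39 ± 0.356, Ciita with 1.13 ± 0.304, H2-Oa with 0.707 ± 0.244 and H2-Ob with 0.466 ± 0.111 CPM per kb, and neighbours in this stretch lay within their spread. In CT males on CTD, Cd74 again led with 41.5 ± 14.7 CPM per kb, ahead of H2-Ab1 with 7.53 ± 1.91. The 10 genes together took 0.0926% to 0.144% of all counts in KO males on HFC and 0.0579% to 0.123% in CT males on HFC. On CTD their share was 0.00847% to 0.0104% in KO males and 0.00824% to 0.0195% in CT males. Of the other class II genes of the locus, H2-Eb2 stayed at or below 0.638 CPM in males and the E alpha pseudogene H2-Ea-ps had 0 counts in every male liver. In females H2-Ea-ps was not at 0 in all CT livers on CTD, where H2-Eb2 and H2-Ea-ps together reached at most 0.250 CPM. It had 0 counts in the livers of the other female groups.

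Whether the HFC diet changed the class II genes was examined in each genotype, and in males the whole set was higher on HFC. Of the 10 genes, 10 were higher on HFC in KO males and 9 in CT males (edgeR quasi-likelihood test, adjusted p under 0.05), where 15.5% and 10.6% of 14078 tested genes were called higher. In KO males the members' log2 fold changes ran from 1.62 to 3.62 with a median of 3.06, against a median of -0.02 over all tested genes. In CT males they ran from 0.78 to 2.78 with a median of 2.05, against -0.01. For all 10 genes the highest CTD liver lay below the lowest HFC liver in both genotypes, which held for 15.4% of tested genes in KO males and 11.4% in CT males. Without CT HFC 418, 1753 genes in place of 2820 were called in CT males.

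The classical chains that hold the peptide changed most. H2-Aa, the alpha chain of the A pair, measured 228, 146, 230 and 174 CPM in KO males on HFC, against 18.2, 16.9, 17.1 and 17.2 CPM in KO males on CTD. In CT males it measured 104, 104, 138 and 215 CPM on HFC, against 17.6, 23.9, 17.2 and 31.2 CPM on CTD. The CTD livers of KO males lay close together, while the HFC livers of either genotype spread widely and the CT liver 543 reached the KO range. H2-Aa was 11.2-fold higher on HFC in KO males (log2 3.49, SE 0.27, adjusted p = 9.53e-07) and 6.22-fold higher in CT males (log2 2.64, SE 0.26, adjusted p = 4.12e-05). Its partner H2-Ab1, the A beta chain, averaged 166 ± 28.7 CPM in KO males on HFC and 15.3 ± 1.82 CPM on CTD, a 10.9-fold difference (adjusted p = 6.34e-07). In CT males it averaged 119 ± 44.0 CPM on HFC and 19.3 ± 4.901 CPM on CTD, a 6.13-fold difference (adjusted p = 2.86e-05). H2-Eb1, the E beta chain that has no alpha partner in this strain, showed the largest log2 fold changes of the set, 3.62 (SE 0.29, adjusted p = 1.45e-06) in KO males and 2.78 (SE 0.28, adjusted p = 5.41e-05) in CT males.

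Cd74, the invariant chain, measured 602, 437, 677 and 417 CPM in KO males on HFC, against 54.2, 48.0, 45.5 and 55.5 CPM in KO males on CTD. In CT males it measured 264, 276, 368 and 546 CPM on HFC, against 56.9, 71.7, 46.7 and 103 CPM on CTD. It rose 10.5-fold in KO males (log2 3.39, SE 0.29, adjusted p = 1.70e-06) and 5.22-fold in CT males (log2 2.38, SE 0.27, adjusted p = 0.000109). The liver of CT male 320 was the highest of the CTD livers and that of CT male 543 the highest of the CT HFC livers, as they were for H2-Aa. Ciita, the coactivator, also rose, from a low level. It measured 13.0, 8.61, 13.5 and 7.90 CPM in KO males on HFC, against 1.27, 1.25, 1.32 and 1.18 CPM on CTD. In CT males it measured 5.62, 5.12, 8.70 and 10.1 CPM on HFC, against 0.990, 1.39, 0.988 and 3.05 CPM on CTD. No HFC liver overlapped the CTD livers of its genotype. Ciita rose 8.56-fold in KO males (log2 3.10, SE 0.34, adjusted p = 8.18e-06) and 4.53-fold in CT males (log2 2.18, SE 0.33, adjusted p = 0.000407).

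The DM chains, which load the peptide, rose less than the classical chains in point estimate. H2-DMa averaged 16.4 ± 3.94 CPM in KO males on HFC and 2.36 ± 0.150 CPM on CTD (log2 2.80, SE 0.29, adjusted p = 5.70e-06). In CT males it averaged 11.5 ± 4.53 CPM on HFC and 3.30 ± 1.14 CPM on CTD (log2 1.80, SE 0.28, adjusted p = 0.000521). H2-DMb1 averaged 21.5 ± 5.30 CPM in KO males on HFC and 2.64 ± 0.173 CPM on CTD (log2 3.03, SE 0.24, adjusted p = 5.14e-07). In CT males it averaged 14.6 ± 4.81 CPM on HFC and 3.85 ± 0.733 CPM on CTD (log2 1.92, SE 0.23, adjusted p = 8.24e-05). Its near copy H2-DMb2 was the one member not called in CT males, with 1.34, 1.41, 1.72 and 1.87 CPM on HFC, against 1.14, 0.996, 0.416 and 1.12 CPM on CTD (log2 0.78, SE 0.36, adjusted p = 0.137). In KO males H2-DMb2 was called, with 3.27, 2.13, 2.48 and 1.83 CPM on HFC, against 1.08, 0.249, 0.487 and 0.294 CPM on CTD (log2 2.18, SE 0.37, adjusted p = 0.000354).

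The DO chains, which restrain DM, were of low abundance and had the smallest log2 fold changes of the set in KO males. H2-Oa, the DO alpha chain, measured 1.27, 0.861, 1.28 and 0.570 CPM in KO males on HFC, against 0.328, 0.299, 0.341 and 0.245 CPM on CTD (log2 1.70, SE 0.39, adjusted p = 0.00336). In CT males H2-Oa measured 0.838, 0.795, 1.04 and 0.539 CPM on HFC, against 0.149, 0.149, 0.208 and 0.539 CPM on CTD (log2 1.57, SE 0.40, adjusted p = 0.0113). These CT values rest on 3 to 26 counts a liver, and the KO values on CTD rest on 5 to 7. The lowest HFC liver and the highest CTD liver of CT males were almost level. H2-Ob, the DO beta chain, measured 2.79, 2.95, 2.65 and 1.63 CPM in KO males on HFC, against 1.22, 0.448, 0.780 and 0.785 CPM on CTD (log2 1.62, SE 0.29, adjusted p = 0.000516). In CT males H2-Ob measured 1.47, 1.37, 1.83 and 1.99 CPM on HFC, against 0.842, 1.19, 0.520 and 0.943 CPM on CTD (log2 0.92, SE 0.29, adjusted p = 0.0349). That call was lost without CT CTD 301 (adjusted p = 0.0767), CT CTD 313 (0.105), CT HFC 418 (0.0902) or CT HFC 543 (0.0907).

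**Figure D2:**
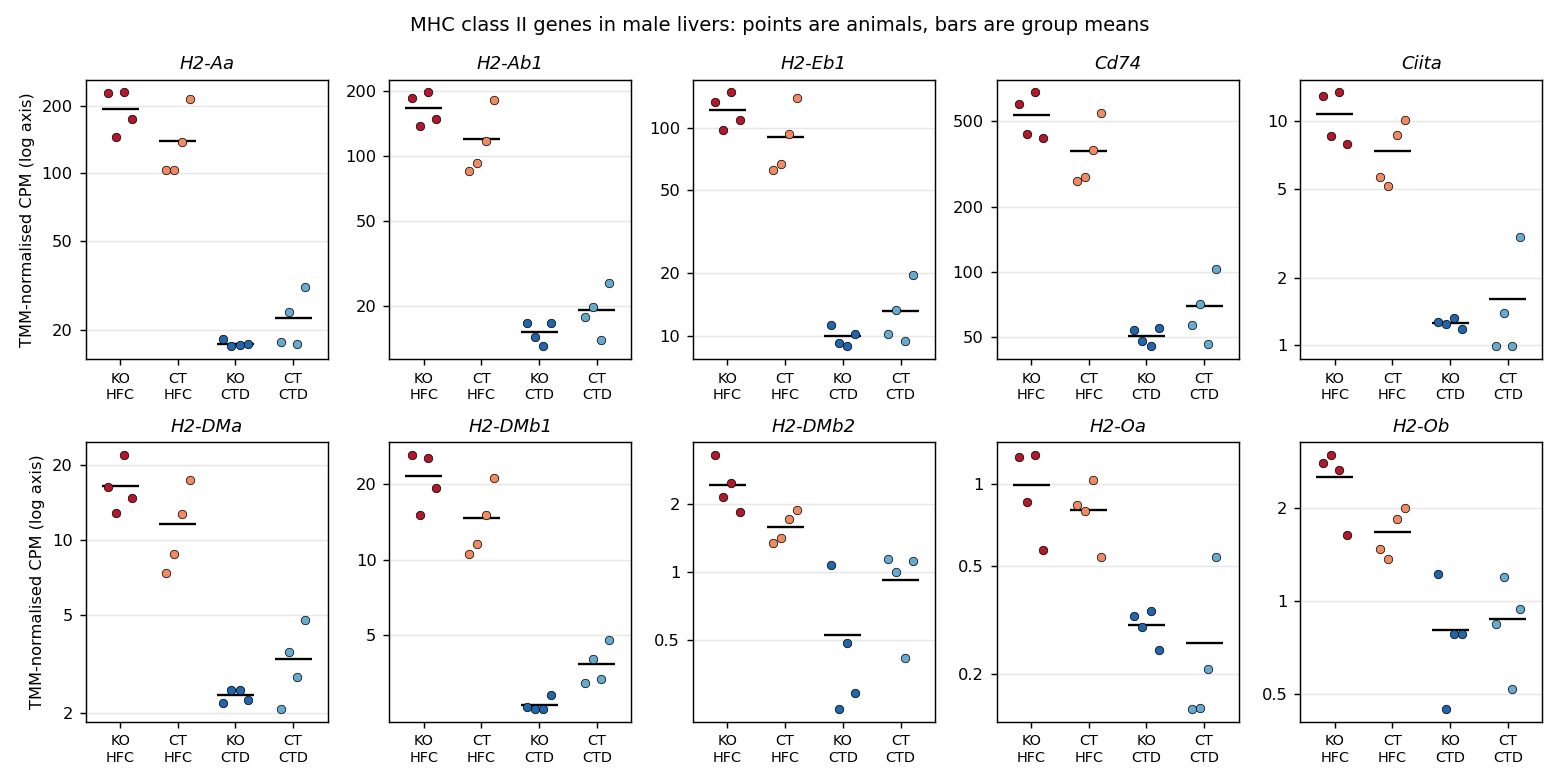
TMM-normalised CPM (log axis) of the 10 genes in male livers, 1 point per animal and a bar at the mean of 4 animals, for KO on HFC, CT on HFC, KO on CTD and CT on CTD. Every HFC point lies above every CTD point of the same genotype in all 10 panels, with H2-Oa in CT males the closest case, and the KO and CT points overlap on HFC.

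Balance within the set was then compared as ratios of counts in the same liver, which the scaling of libraries does not touch. H2-Ob counts were at a median of 14.6% of H2-DMa counts in KO males on HFC and 33.1% on CTD, and of 15.1% in CT males on HFC and 26.8% on CTD. On HFC relative to CTD this ratio was 0.469-fold in KO males (exact two-sided permutation test, p = 0.0571) and 0.567-fold in CT males (exact p = 0.0857). It was 0.575-fold in KO females (exact p = 0.3) and 0.417-fold in CT females (exact p = 0.1). Across the 28 ratio tests of this kind no adjusted p was below 0.2. The design allows no exact p below 0.0286 in males or 0.1 in females. With all 28 tests adjusted together, no adjusted p could fall under the threshold used to call genes, whatever the counts. The adjusted p of these ratios therefore cannot decide whether a ratio changed with diet. H2-Oa to H2-DMa was 0.459-fold in KO males on HFC relative to CTD (exact p = 0.0286, adjusted p = 0.2), with livers that did not overlap, and 1.01-fold in CT males (exact p = 0.971, adjusted p = 0.971). On CTD these ratios rest on 5 to 7 counts of H2-Oa a liver in KO males and 3 to 12 in CT males. H2-Eb1 to H2-Ab1 was 1.13-fold in KO males (exact p = 0.0286, adjusted p = 0.2) and 1.14-fold in CT males (exact p = 0.0857, adjusted p = 0.2). In counts, which were not divided by exon length here, the chains of the A pair stood near parity in every group of males. Per kilobase of exon H2-Aa had the lower mean, with 51.2 CPM per kb against 64.7 for H2-Ab1 in KO males on HFC. H2-Aa counts were 106% to 124% of H2-Ab1 counts in KO males on HFC and 103% to 131% on CTD. They were 113% to 123% in CT males on HFC and 98.6% to 124% on CTD. Ciita was 5.38% to 7.06% of H2-Ab1 counts in KO males on HFC and 7.06% to 10.1% on CTD (0.773-fold, exact p = 0.0286, adjusted p = 0.2). The same ratio was 0.827-fold in CT males (exact p = 0.371, adjusted p = 0.547), 0.863-fold in KO females (exact p = 0.7, adjusted p = 0.817) and 1.12-fold in CT females (exact p = 0.8, adjusted p = 0.862).

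Whether deletion of endothelial c-Myc changed the class II genes was asked on each diet, and no member was called. On HFC, 0 of 14078 genes passed in males (0% called), 653 (4.64%) had an unadjusted p under 0.05 by edgeR, and DESeq2 called 3 genes and no member. All 10 members had a log2 fold change above 0 in KO males on HFC, with values of 0.31 to 0.62 and a median of 0.52. The median of all tested genes was 0.00, and 51.1% of them had a value above 0. The unadjusted p was under 0.05 for 3 of the 10 members and, in the same direction, for 2.86% of genes. The 3 were H2-DMb1 (log2 0.56, SE 0.20), H2-Ob (log2 0.59, SE 0.27) and H2-Ab1 (log2 0.48, SE 0.22), each at an edgeR adjusted p of 0.958. KO and CT livers on HFC overlapped for every member, while 1.09% of genes were higher and 1.07% lower without overlap. H2-Aa, for example, averaged 194 ± 41.5 CPM in KO males and 140 ± 52.3 CPM in CT males (log2 0.47, SE 0.24, adjusted p = 0.958), and Cd74 533 ± 127 CPM in KO males and 364 ± 131 CPM in CT males (log2 0.55, SE 0.26, adjusted p = 0.958).

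On CTD the direction of the point estimates was the other way in males. Of the 10 members 9 had a log2 fold change below 0 in KO males, with a median of -0.39 and a range from -0.79 for H2-DMb2 to 0.19 for H2-Oa, where 48% of genes were above 0. Of 14078 genes 0 were called (0%), 949 (6.74%) had an unadjusted p under 0.05 by edgeR, and DESeq2 called 11 genes and no member. H2-DMb1 was the member whose livers did not overlap, with 2.58, 2.54, 2.53 and 2.90 CPM in KO males, against 3.22, 4.03, 3.33 and 4.80 CPM in CT males (log2 -0.55, SE 0.25, adjusted p = 0.738), where 2.05% of genes were lower and 1.94% higher without overlap. It was also the one member with an unadjusted p under 0.05, as 3.91% of genes had in the lower direction. For H2-Aa the KO mean was 17.4 ± 0.578 CPM and the CT mean 22.5 ± 6.58 CPM on CTD, with the 2 highest values in CT livers 320 and 305. Markers had estimates in the same direction, with log2 fold changes above 0 for 0 of 10 macrophage (median -0.39), 0 of 8 Kupffer cell (-0.40), 1 of 10 B cell (-0.45), 2 of 10 T cell (-0.15), 4 of 10 dendritic cell (-0.21) and 0 of 10 endothelial genes (-0.33), none called, and Ptprc at -0.71. Their part in the members' values was not tested. The members' median was -0.18 without CT CTD 320, and H2-DMb2 stood at -1.41 without KO CTD 298. The direction of the estimate turned for Ciita without CT CTD 320 (0.15), for H2-Oa without CT CTD 301 (-0.0048) or 305 (-0.0024), and for H2-Ob without CT CTD 305 (0.069) or KO CTD 303 (0.084).

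How far the diet effect differed between the genotypes was tested as the interaction, KO minus CT. In males 0 of 14078 genes were called (0%), 852 (6.05%) had an unadjusted p under 0.05 by edgeR, and DESeq2 called 5 genes and no member. The members' interaction was positive for all 10, with a median of 0.88 log2 and a range from 0.12 for H2-Oa to 1.41 for H2-DMb2, against a median of 0.01 over all tested genes, of which 51.3% were above 0. The unadjusted p was under 0.05 and the value positive for 7 of the 10 members and for 4.08% of genes. The lowest was that of H2-DMb1 (log2 1.11, SE 0.32, edgeR adjusted p = 0.727), followed by H2-DMb2 (log2 1.41, SE 0.52, adjusted p = 0.754) and Cd74 (log2 1.01, SE 0.37, adjusted p = 0.754). The diet effects in KO and CT males share no animals, but the interaction is built from the same livers as the comparisons above and adds no independent evidence. Markers had positive interactions as well, for 10 of 10 macrophage (median log2 0.76), 10 of 10 B cell (0.83), 8 of 8 Kupffer cell (0.69), 10 of 10 T cell (0.56), 8 of 10 dendritic cell (0.30) and 9 of 10 endothelial genes (0.26), none called, and Ptprc stood at 0.94. Their part in the members' interaction was not tested. The interaction of H2-Oa changed sign without CT CTD 320 (-0.52), CT HFC 543 (-0.027), KO HFC 414 (-0.016) or KO HFC 539 (-0.020).

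**Figure D3:**
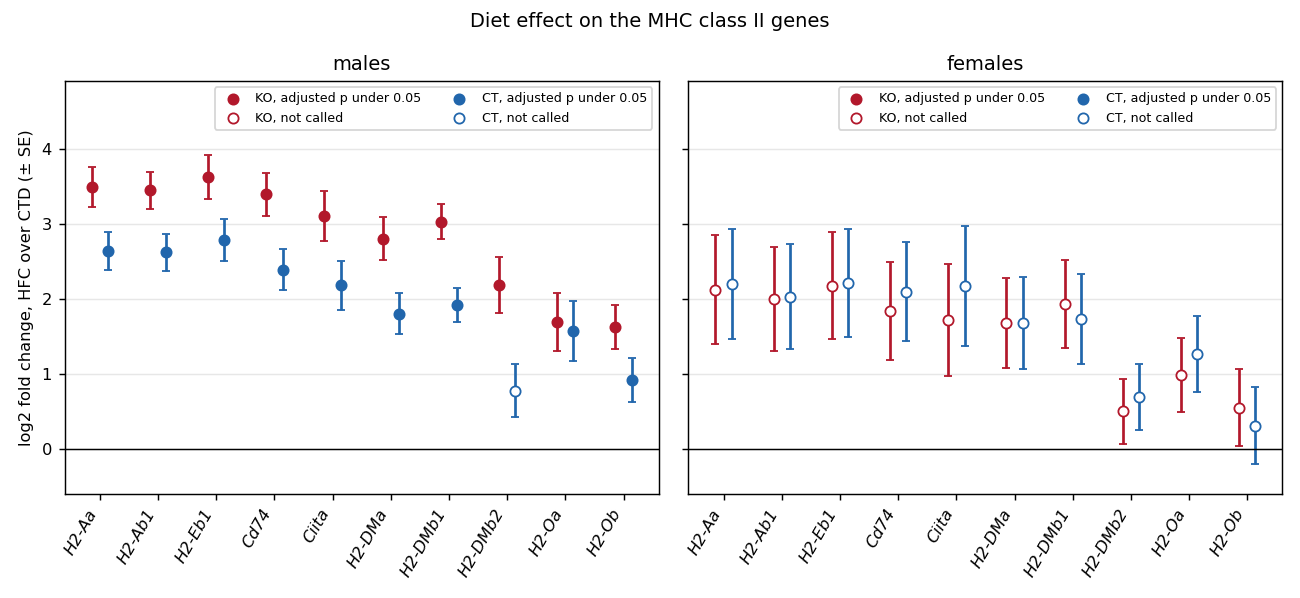
Log2 fold change of HFC over CTD for each of the 10 genes (points, ± SE) in males and in females, with KO (red) left of CT (blue), filled where edgeR's adjusted p was under 0.05 and open otherwise. In males all 10 KO points and 9 CT points are filled, and in females all points are open with wider error bars.

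In females the class II genes were also higher on average on HFC, but no member was called. Of 13999 tested genes 3.94% were called higher in KO females and 0.936% in CT females, and 0 of the 10 members were among either. Members had a median log2 fold change of 1.78 in KO females (range 0.50 to 2.18) and 1.88 in CT females (range 0.31 to 2.21), against 0.02 and 0.00 over all tested genes. At an unadjusted p under 0.05 edgeR had 7 members higher in KO females and 8 in CT females, as it had 13.6% and 10.6% of genes, and DESeq2 called 4 members higher in each genotype, as it called 6.26% of genes in KO females and 2.91% in CT females.

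One female liver in each HFC group stood far below the other two for the classical chains. H2-Aa measured 258, 39.6 and 192 CPM in KO females on HFC (animals 412, 413 and 419), against 23.0, 49.99 and 39.2 CPM on CTD. In CT females it measured 123, 168 and 28.5 CPM on HFC (animals 420, 510 and 512), against 17.9, 24.7 and 27.2 CPM on CTD. KO HFC 413 lay within the CTD range of KO females and CT HFC 512 just above that of CT females. Cd74 was likewise lowest in these 2 HFC livers, with 661, 131 and 483 CPM in KO females on HFC, against 64.8, 150 and 140 CPM on CTD, and 389, 444 and 99.5 CPM in CT females on HFC, against 56.0, 88.5 and 74.3 CPM on CTD. Ciita was also lowest in these 2 livers, at 1.99 CPM in KO HFC 413 and 1.12 CPM in CT HFC 512, against 5.75 and 12.01 CPM in the other KO HFC livers and 7.35 and 6.62 CPM in the other CT HFC livers. Cyp8b1, a bile acid synthesis gene chosen after its values were seen, was low in them as in all HFC females. It stood at 0.284 CPM in KO HFC 413 and 0.854 CPM in CT HFC 512, against 0.185 to 0.365 CPM in the other HFC livers and 97.2 to 201 CPM in the 6 CTD livers. Itgax, a marker of dendritic cells and of some macrophages, was likewise lowest in them, at 2.04 and 2.72 CPM, against 16.7 and 9.23 CPM in the other KO HFC livers and 6.97 and 9.12 CPM in the other CT HFC livers.

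Without KO HFC 413, 6 members passed in KO females, H2-Aa, H2-Ab1, H2-Eb1, H2-DMa, H2-DMb1 and Cd74, and 2671 genes in place of 1202 were called. H2-Aa then had a log2 fold change of 2.58 (adjusted p = 0.0224), against 2.12 (SE 0.72, adjusted p = 0.101) with all animals. Without CT HFC 512 no member passed in CT females, and the members' median was 2.27. H2-DMb1 had the lowest adjusted p of the members in KO females (log2 1.93, SE 0.59, adjusted p = 0.0711) and Cd74 in CT females (log2 2.09, SE 0.66, adjusted p = 0.129). H2-Oa was the member whose livers did not overlap in KO females, with 1.28, 1.14 and 1.08 CPM on HFC, against 0.413, 0.721 and 0.622 CPM on CTD (log2 0.98, SE 0.49, adjusted p = 0.229). In CT females this held for 5 members, H2-Aa, H2-Eb1, H2-DMa, H2-DMb1 and Cd74, where 14.3% of genes were higher on HFC without overlap and 12.2% were in KO females. The smallest log2 fold changes were those of H2-DMb2 in KO females (0.50, SE 0.44) and H2-Ob in CT females (0.31, SE 0.51).

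**Figure D4:**
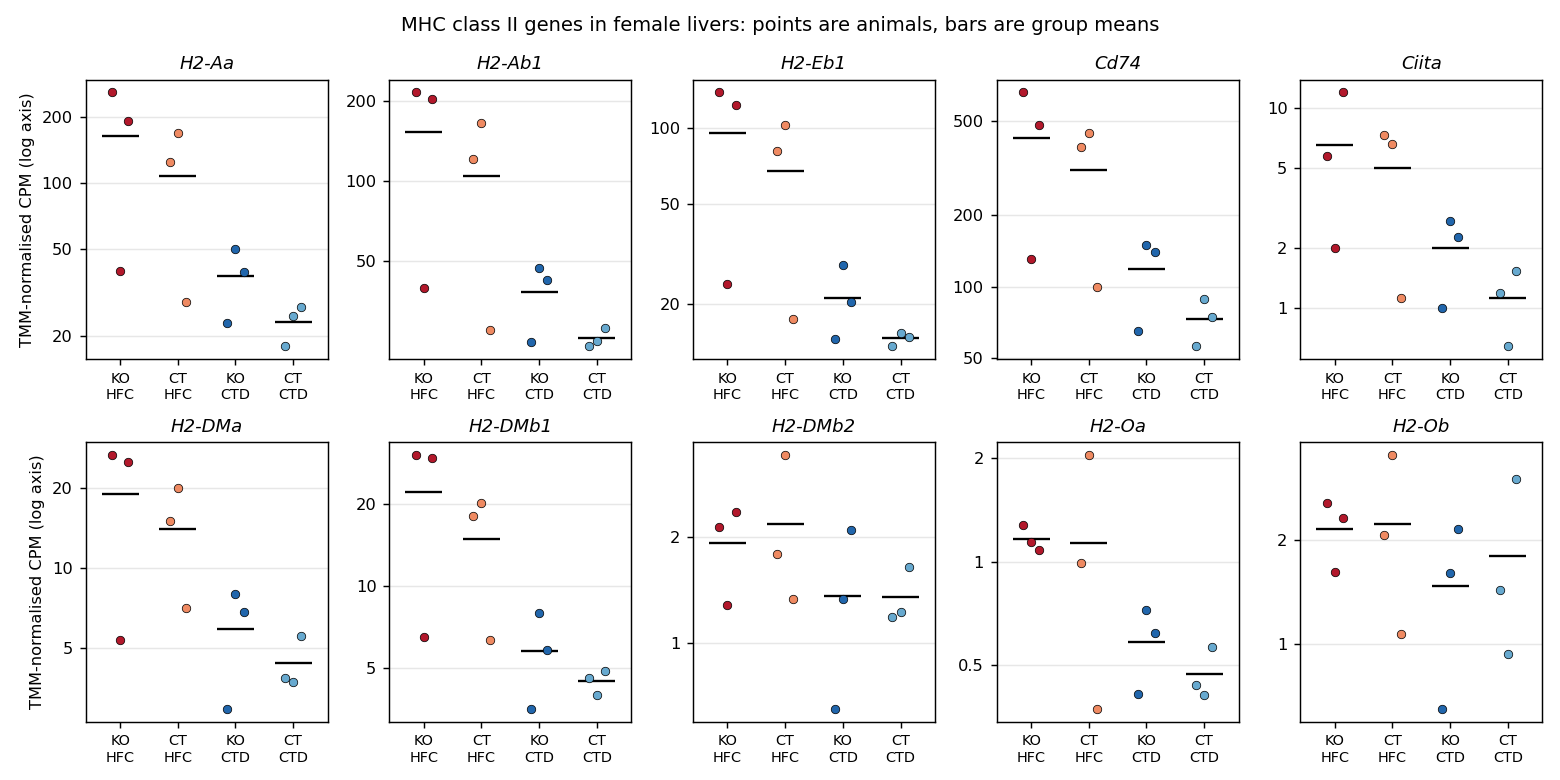
TMM-normalised CPM (log axis) of the 10 genes in female livers, 1 point per animal and a bar at the mean of 3 animals, for KO on HFC, CT on HFC, KO on CTD and CT on CTD. In the panels of H2-Aa, H2-Ab1, H2-Eb1, Cd74, Ciita, H2-DMa and H2-DMb1, 1 liver of each HFC group (KO 413 and CT 512) sits apart from the other two, in or just above the CTD range.

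Between genotypes, females gave 0 called genes of 13999 on HFC (0%), where 311 (2.22%) had an unadjusted p under 0.05 by edgeR and DESeq2 called 0. On CTD they gave 0 (0%), with 446 (3.19%) at an unadjusted p under 0.05 and 0 by DESeq2. Of the 10 members 8 had a log2 fold change above 0 in KO females on HFC, with a median log2 fold change of 0.44, where 53.1% of genes were above 0. On CTD 9 members did, with a median of 0.49, where 52.3% of genes were above 0. H2-Aa averaged 163 ± 112 CPM in KO females and 107 ± 71.2 CPM in CT females on HFC (SD, n = 3, log2 0.61, SE 0.69, edgeR adjusted p = 0.9999). On CTD it averaged 37.4 ± 13.6 CPM in KO females and 23.3 ± 4.78 CPM in CT females (log2 0.68, SE 0.71, adjusted p = 0.999). KO and CT livers overlapped for all 10 members on both diets. Without overlap, 2.8% of genes were higher and 2.66% lower on HFC, and 4.48% higher and 4.7% lower on CTD. Leaving out KO HFC 413 moved the members' median on HFC to 0.88 with 9 genes called, and leaving out CT HFC 512 moved it to 0.03. On CTD it was 0.21 without KO CTD 309 and 0.75 without KO CTD 307. The interaction was above 0 for 3 of the 10 members and 50.2% of genes, with a median of -0.05 over the members. That median ran from -0.49 without CT HFC 512 to 0.42 without CT HFC 510, and its sign also turned without CT CTD 306, KO CTD 309, KO CTD 317, CT HFC 420 or KO HFC 413. It gave 0 called genes (0%), 546 (3.9%) at an unadjusted p under 0.05 by edgeR and 0 by DESeq2. Whether the sexes differ was not tested because each has a table of its own.

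The genes that surround class II presentation were read from lists, first the proteins that bind the class II promoters with Ciita. Of 8 such genes, 1 was called higher and 2 lower on HFC in KO males and none passed in CT males. Over all tested genes 15.5% were called higher and 13.6% lower in KO males, so these shares lie near the background. Rfx5, a subunit of the X box factor, was higher in KO males (log2 0.42, SE 0.11, adjusted p = 0.00747), while Zxdc, a zinc finger partner of Ciita (log2 -0.42, SE 0.08, adjusted p = 0.000704), and Nfyc, a subunit of the Y box factor (log2 -0.21, SE 0.07, adjusted p = 0.0219), were lower. In CT males Rfx5 had a log2 fold change of 0.30 (adjusted p = 0.0643). The summed level of the 8 genes was 123 to 137 CPM in KO males on HFC and 123 to 131 CPM on CTD, and 127 to 130 CPM in CT males on HFC and 123 to 126 CPM on CTD.

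Of 8 tested genes of the interferon gamma pathway, the inducer of Ciita in many cells, 6 rose on HFC in KO males and 6 in CT males, not all of them the same genes. Jak2, a kinase of the receptor, was called in KO males (log2 0.40, adjusted p = 0.00585) and had log2 0.28 in CT males (adjusted p = 0.0530), while Ifngr2, the other receptor chain, was called in CT males (log2 0.45, adjusted p = 0.00438) and had log2 0.25 in KO males (adjusted p = 0.0676). These 2 genes were chosen after their values were seen. Irf8, a transcription factor of myeloid cells, rose by log2 1.72 (SE 0.13, adjusted p = 3.59e-07) in KO males and 1.08 (SE 0.13, adjusted p = 8.52e-05) in CT males, and Ifngr1, a chain of the receptor, by 0.93 (SE 0.10, adjusted p = 3.09e-06) and 0.78 (SE 0.10, adjusted p = 8.07e-05). Ifng itself was too low to test, with 1 to 5 counts in KO males and 1 to 3 in CT males on HFC, and 0 in KO males and 0 to 1 in CT males on CTD. Of 7 genes that process antigen in the endosome 5 rose in both genotypes, with the lowest adjusted p in both for Ctss, the protease that trims the invariant chain (log2 2.04, SE 0.19, adjusted p = 3.05e-06), which rose by 1.16 (SE 0.19, adjusted p = 0.000711) in CT males. Of 7 genes for costimulation and class II receptors 5 rose in KO males and 3 in CT males, and the lowest adjusted p in both was that of Cd86, a ligand that costimulates T cells (log2 1.89, SE 0.17, adjusted p = 1.11e-06 in KO males and log2 1.01, SE 0.17, adjusted p = 0.000617 in CT males). Cd4, the co-receptor that binds class II, also chosen after its values were seen, had log2 fold changes of 0.25 (adjusted p = 0.576) and 0.03 (adjusted p = 0.962). Of 10 genes of the class I pathway 9 rose in KO males and 7 in CT males, with median log2 fold changes of 0.58 and 0.46. Nlrc5, the counterpart of Ciita for class I, rose by log2 0.59 (SE 0.06, adjusted p = 4.75e-06) in KO males and 0.41 (SE 0.06, adjusted p = 0.000413) in CT males. In females no gene of these lists passed on either genotype.

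Markers of the cells that carry class II moved with the members in males. In whole liver, more cells of a type and more RNA per cell cannot be told apart, and the part of cell numbers in the rise of the members was not tested. Macrophage markers rose for 10 of 10 genes in KO males and 8 of 10 in CT males, and their summed level was 583 to 788 CPM in KO males and 485 to 762 CPM in CT males on HFC. On CTD the sum was 200.4 to 254 CPM in KO males and 256 to 365 CPM in CT males. B cell markers rose for 9 of 10 genes in KO males and 3 of 10 in CT males, with sums of 12.8 to 19.4 CPM in KO males and 10.6 to 13.7 CPM in CT males on HFC. On CTD the sum was 5.23 to 8.35 CPM in KO males and 6.60 to 10.7 CPM in CT males. Dendritic cell markers rose for 6 of 10 genes in KO males and 5 of 10 in CT males, with sums of 24.1 to 46.2 CPM in KO males and 22.9 to 30.3 CPM in CT males on HFC. On CTD the sum was 14.02 to 16.3 CPM in KO males and 14.4 to 17.6 CPM in CT males. Kupffer cell markers rose for 8 of 8 genes in KO males and 5 of 8 in CT males, and T cell markers for 9 of 10 and 7 of 10. Markers of endothelial cells, in which c-Myc is deleted, were called higher for 3 of 10 genes in KO males and 1 of 10 in CT males. Over all tested genes 15.5% were called higher in KO males and 10.6% in CT males, so the CT count lies near the background. The median log2 fold change of the endothelial markers was 0.19 in KO males and -0.03 in CT males. Their sums were 262 to 343 CPM in KO males and 286 to 412 CPM in CT males on HFC. On CTD the sum was 223 to 302 CPM in KO males and 295 to 383 CPM in CT males. Hepatocyte markers fell for 3 of 6 genes in KO males and 2 of 6 in CT males. Over all tested genes 13.6% were called lower in KO males and 9.4% in CT males. In females no marker of the immune or endothelial lists was called, as no member was, but their estimates on HFC were also mostly above 0. Macrophage markers were above 0 for 10 of 10 genes in both genotypes (median log2 0.88 in KO females and 0.71 in CT females), dendritic cell markers for 9 of 9 (0.66 and 0.89), and T cell markers for 9 of 10 in KO females (1.17) and 10 of 10 in CT females (1.26). Kupffer cell markers were above 0 for 8 of 8 in both (0.61 and 0.63). For B cell markers it was 7 of 10 in KO females (0.22) and 9 of 10 in CT females (0.11). Endothelial markers were above 0 for 9 of 10 in KO females (0.34) and 10 of 10 in CT females (0.56). Hepatocyte markers fell for 4 of 6 genes in KO females, where 4.65% of genes did, and 1 of 6 in CT females, where 1.26% did. No marker of these lists was at 0 in all livers of a group. Between KO and CT males on HFC, where the members' estimates were all positive, so were those of 10 of 10 macrophage and 10 of 10 B cell markers, with medians of 0.38 and 0.31 log2 and none called. Of the other lists, 9 of 10 T cell (median 0.22), 8 of 10 dendritic cell (0.28) and 7 of 8 Kupffer cell genes (0.26) were above 0, but 1 of 10 endothelial genes (-0.12).

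H2-Ab1 counts were set against single markers in the same liver. Per count of Ptprc, the marker of all leukocytes, H2-Ab1 had 4.22 to 6.71 counts in KO males and 3.16 to 5.42 in CT males on HFC. On CTD it had 1.57 to 2.18 in KO males and 1.17 to 1.61 in CT males. Per count of the macrophage marker Adgre1 it had 2.995 to 4.23 in KO males and 2.10 to 3.29 in CT males on HFC. On CTD it had 0.927 to 1.18 in KO males and 0.629 to 1.13 in CT males. These ranges of HFC and CTD males did not overlap, so in males H2-Ab1 was higher on HFC also per count of these markers. Per count of the B cell marker Cd79a, which had 8 to 65 counts in a male liver, H2-Ab1 had 60.7 to 120 counts in KO males and 45.8 to 97.2 in CT males on HFC. On CTD it had 14.4 to 20.6 in KO males and 18.9 to 33.5 in CT males. Per count of Itgax the ranges overlapped, with 9.09 to 22.5 in KO males and 11.9 to 22.2 in CT males on HFC. On CTD it had 15.6 to 21.3 in KO males and 11.7 to 22.3 in CT males. The ratios to Itgax, which had 16 to 546 counts in a male liver, thus showed no shift with diet that exceeds the spread between livers. Itgax is 1 of the 10 dendritic cell genes, whose median log2 fold change on HFC was 1.19 in KO males and 0.92 in CT males. What its ratio says of the cells behind the rise was not tested. Per count of the Kupffer cell marker Clec4f, H2-Ab1 had 1.14 to 1.65 in KO males on HFC and 0.203 to 0.269 on CTD. In CT males it had 0.874 to 1.36 on HFC and 0.148 to 0.270 on CTD. In females the ranges on HFC and CTD overlapped for Ptprc, with 3.12 to 6.83 in KO and 2.17 to 6.58 in CT livers on HFC, against 2.99 to 3.19 in KO and 1.38 to 4.10 in CT livers on CTD. They also overlapped for Adgre1 and Cd79a, in KO and in CT females. Per count of Clec4f they did not overlap in KO females, with 0.418 to 1.51 on HFC and 0.274 to 0.359 on CTD. In CT females they did, with 0.222 to 1.27 on HFC and 0.188 to 0.349 on CTD. In females the ratios to Itgax were 13.0 to 22.1 in KO and 10.1 to 18.2 in CT livers on HFC, against 14.98 to 35.2 in KO and 17.2 to 27.4 in CT livers on CTD.

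**Figure D5:**
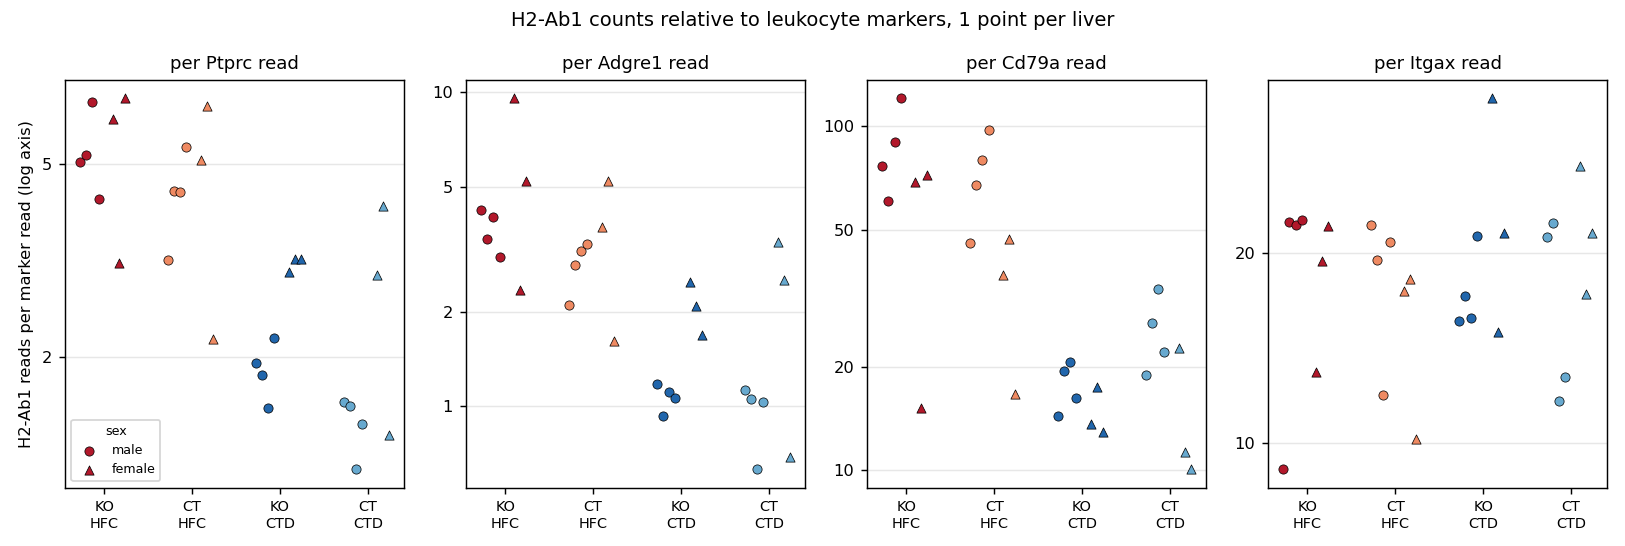
Counts of H2-Ab1 per count of Ptprc, Adgre1, Cd79a and Itgax in each liver (log axes), with males as circles and females as triangles, for KO on HFC, CT on HFC, KO on CTD and CT on CTD. Male HFC livers lie above male CTD livers for Ptprc, Adgre1 and Cd79a, whereas for Itgax the 4 groups overlap, with male medians of 22.3, 20.2, 16.4 and 16.9.

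How the members vary among livers of one group was described from deviations of log2 CPM from the group mean, over 16 male and 12 female livers. A block of 7 members, H2-Aa, H2-Ab1, H2-Eb1, Cd74, Ciita, H2-DMa and H2-DMb1, varied together, with Pearson correlations of 0.82 to 0.98 in males and 0.84 to 0.99 in females between any 2 of them. H2-DMb2, H2-Oa and H2-Ob correlated with the block at 0.20 to 0.66 in males and 0.59 to 0.82 in females. These 3 are also among the members with the fewest counts, and the part of counting noise in their lower values was not tested. H2-DMb2 and H2-Ob correlated with each other at 0.82 in males and 0.89 in females. The block was named after the correlations were seen, and in females the livers KO HFC 413 and CT HFC 512 lie far from their group means.

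Each member's deviation was also related to that of the summed markers of 7 lists in each sex, 140 relations in all, with permutations within groups. H2-Ob followed the B cell markers, with r = 0.822 and rho = 0.794 in males (permutation p = 0.00189 and 0.0019, adjusted p = 0.0196 and 0.0237) and r = 0.940 and rho = 0.958 in females (permutation p = 0.00326 and 0.00158, adjusted p = 0.0196 and 0.0237). Without the 2 livers farthest out on the marker sum, r was 0.717 in males and 0.902 in females. H2-DMb2 gave r = 0.767 and rho = 0.709 with B cell markers in males (permutation p = 0.00639 and 0.00987, adjusted p = 0.0244 and 0.0366, r = 0.578 without the 2 farthest livers). H2-DMb2 gave similar values with T cell markers in males, r = 0.727 and rho = 0.759 (permutation p = 0.00314 and 0.00349, adjusted p = 0.0196 and 0.0244, r = 0.743 without the 2 farthest livers). H2-Ob also followed T cell markers there, with r = 0.651 and rho = 0.709 (permutation p = 0.0203 and 0.00768, adjusted p = 0.0444 and 0.0326, r = 0.742 without the 2 farthest livers). H2-Ab1 gave r = 0.479 and rho = 0.503 with B cell markers in males (permutation p = 0.0579 and 0.0628, adjusted p = 0.1 and 0.12, r = 0.380 without the 2 farthest livers). In females it gave r = 0.605 and rho = 0.643 with B cell markers (permutation p = 0.00373 and 0.0054, adjusted p = 0.0196 and 0.0302, r = 0.687 without the 2 farthest livers). With T cell markers H2-Ab1 gave r = 0.794 and rho = 0.835 in males (permutation p = 0.00104 and 0.00094, adjusted p = 0.0196 and 0.0237, r = 0.779 without the 2 farthest livers). With macrophage markers H2-DMb1 gave r = 0.805 and rho = 0.788 in males (permutation p = 0.00329 and 0.00225, adjusted p = 0.0196 and 0.0237, r = 0.660 without the 2 farthest livers), and H2-Ob gave r = -0.12 and rho = -0.05 in males (permutation p = 0.656 and 0.865, adjusted p = 0.702 and 0.905, r = -0.22 without the 2 farthest livers). In females H2-Ob gave r = 0.842 and rho = 0.860 with macrophage markers (permutation p = 0.00384 and 0.00314, adjusted p = 0.0196 and 0.0237, r = 0.829 without the 2 farthest livers). With dendritic cell markers H2-Ob gave r = 0.582 and rho = 0.692 in females (permutation p = 0.00372 and 0.00611, adjusted p = 0.0196 and 0.031). H2-Ab1 gave r = 0.912 and rho = 0.972 with dendritic cell markers in females (permutation p = 0.0008 and 0.0008, adjusted p = 0.0196 and 0.0237). With T cell markers it gave r = 0.945 and rho = 0.909 there (permutation p = 0.00373 and 0.00303, adjusted p = 0.0196 and 0.0237). In males H2-Ab1 gave r = 0.405 and rho = 0.512 with dendritic cell markers (permutation p = 0.128 and 0.0834, adjusted p = 0.194 and 0.139, r = 0.448 without the 2 farthest livers). Differences between these correlations were not tested, and no member is shown to follow 1 cell type alone.

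Of 13728 other genes tested in both sexes, the 5 whose deviations were most like the mean deviation of the 10 members, by the smaller of the Pearson correlations in males and females, were Map4k1 (0.895 in males and 0.906 in females), a kinase of blood cells, Cyfip2 (0.870 and 0.946), a regulator of actin, Btla (0.864 and 0.879), an inhibitory receptor of lymphocytes, Slc16a3 (0.859 and 0.860), a lactate transporter, and Coro1a (0.835 and 0.935), an actin-binding protein of leukocytes. Itgax ranked 46, Ptprc 78 and Cd79a 237 by the same measure. Itgax and Cd79a were the best ranked genes of their lists. The other dendritic cell markers tested in both sexes ranked from 890 (Itgae) to 13563 (Zbtb46). Other B cell markers ranked from 372 (Cd22) to 5273 (Blk), and macrophage markers from 43 (Lyz2) to 2234 (Mertk).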

How the data were processed

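RNA sequencing of total liver RNA from 28 mice was done on a DNBSEQ platform, per the labels. The authors deposited whole-number counts per gene and CPM values for each sex, in 56 columns of which all were mapped to an animal. The deposited CPM equal each count over the library total within 1e-04 CPM, so analysis started from the counts. FastQC, edgeR and the build GRCm38 (mm10) are named in the submitters' processing notes. The sources used here do not give the aligner, the counting program or the use of strand.

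Each table was fitted on its own with edgeR 4.0.16 (R 4.3.3): TMM factors, filterByExpr on the 4 groups (14078 genes kept in males, 13999 in females), a quasi-likelihood F test with robust shrinkage, and Benjamini-Hochberg adjustment over all tested genes of a comparison, called at adjusted p under 0.05. SEs are the log2 fold change over the square root of F and are approximate. CTD libraries had TMM factors of 0.842 to 0.999, and HFC libraries of 1.00 to 1.19. The labels pair no animals. Alternatives were DESeq2 1.42.0, other size factors, no filter, the compared groups alone and leaving out each animal. Ratios of counts were tested by exact two-sided permutation. Correlations of members with marker sums were tested by 100000 permutations within groups, on log2 of CPM plus 0.1. Correlations among members and with other genes used log2 CPM at a prior count of 2 and were not tested. The steps were tested on simulated counts for KO against CT on HFC. Of 50 genes changed by log2 0.5, 40% were recovered in males and 8% in females, so changes of that size were mostly missed. Of 50 genes changed by log2 1, 84% were recovered in males and 58% in females. The changed genes were drawn at random from all tested genes, each with its own spread. These rates are thus not those of the class II genes, whose recovery was not simulated. Coordinates came from GENCODE M21 and promoters from RefSeq. The labels do not say that animals of a group came from separate litters or cages, and p-values measure the spread between these animals. Members, lists and ratios were chosen with earlier results of these data known, so no p is given for the set as a whole. Of each list, up to 2 called genes by adjusted p were eligible to be named, regulators in full.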

Additional observations from a re-analysis of the deposited data

Results flagged for a closer look

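Values were compared within each of the 40 sets of 4 male livers (10 genes in 4 groups), of which chance alone singles out about 1 in 20, and 2 sets had a liver far from the others by Dixon's criterion. H2-DMb1 stood at 2.90 CPM in KO CTD 311, against 2.53 to 2.58 CPM in the other KO males on CTD, a distance that is wide only beside the closeness of those 3. H2-Oa stood at 0.539 CPM (12 counts) in CT CTD 320, against 0.149 to 0.208 CPM (3 to 4 counts) in the other CT males on CTD.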

How the results depend on the processing

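Of the members' log2 fold changes, 373 of the values under alternatives other than leaving out an animal kept their direction and their side of the threshold, 15 in females became called and 0 reversed. Scaling by library totals, the median of all genes moved on HFC to 0.26 (KO males), 0.22 (CT males), 0.32 (KO females) and 0.30 (CT females) log2, so called genes were 5581 higher and 511 lower in KO males (2184 and 1918 by TMM), 4125 and 410 (4535 in all) in CT males (1497 and 1323), 3357 and 380 (3737 in all, 6 members) in KO females (551 and 651) and 1682 and 145 (1827 in all) in CT females (131 and 176). DESeq2 called 3 genes for KO against CT males on HFC, 11 on CTD, 5 for the interaction, 1834 genes with 4 members for diet in KO females and 905 with 4 members in CT females. Fitting the compared groups alone gave 435 genes in KO females (161 higher) and 804 in CT females (427 higher), with 1 member, H2-DMa.

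Leaving out 1 animal at a time gave 1753 to 3374 genes called for diet in CT males, 566 to 2671 in KO females with 0 to 6 members, and 72 to 417 in CT females (72 without CT HFC 420 or 510, 85 without CT CTD 306, 118 without CT CTD 308). It gave 0 to 9 genes for KO against CT females on HFC and 0 to 1 for the interaction in females, the highest of each without KO HFC 413. KO females fell to 566, 586 or 630 genes without a CTD animal, 665 without KO HFC 412 and 765 without KO HFC 419. Signs turned for KO against CT females on HFC in H2-DMb2 (-0.44 to 0.30), H2-Ob (-0.38 to 0.45), H2-Oa (-0.38 to 0.75), Ciita (-0.38 to 0.81) and Cd74 (-0.020 to 0.88), and for diet in CT females in H2-Ob (-0.19 to 0.91). They turned for KO against CT males on CTD in Ciita (-0.55 to 0.15), H2-Oa (-0.0048 to 0.83) and H2-Ob (-0.38 to 0.084), and for the interaction in males in H2-Oa (-0.52 to 0.31). The cause was not tested. No paired analysis was possible because the labels give every animal a number of its own.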
